A study of Mus musculus with 42 samples.

Results

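The proteasome subunits described here are the 39 protein-coding genes whose symbol starts with Psma, Psmb, Psmc, Psmd or Psme followed by a number. The interferon-inducible catalytic subunits Psmb8, Psmb9 and Psmb10 were left out, and a mean of at least 10 normalised reads was required in each of the deposited tables. Of 40 genes that matched the name, 39 passed this minimum, among 47643 genes in both tables and 10685 protein-coding genes above the same minimum. The gene that did not pass was Psmb11, a core subunit of the thymus, which was at 0 in every library. The 39 members divide into 7 genes of the 20S alpha ring, 7 of the 20S beta ring, 6 of the 19S ATPase ring, 11 other 19S subunits, 3 assembly chaperones of the 19S particle, 4 activators and the germline alpha subunit Psma8.

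Macrophages of aged mice (18 to 20 months) and of young mice (2 to 3 months), all C57BL/6, were sampled over the day. The labels name no genotype or treatment, and they give the tissue only as macrophage. Samples were taken at 7 zeitgeber times (ZT, hours of the light cycle), every 4 h between ZT0 and ZT24, with 3 libraries in each of 14 groups of 1 age and 1 time. This gave 21 aged and 21 young libraries of 3' end RNA sequencing, a method that reads each transcript near its tail, so that long and short genes are counted alike. The labels do not say that libraries of a group came from separate animals, and p-values then reflect only how much these samples varied, a spread that may be technical.

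The proteasome is the protease that degrades proteins tagged with ubiquitin. Its barrel, the 20S core, is built of alpha rings that gate the entrance and beta rings that carry the cutting sites inside. The 19S regulatory particle recognises the tagged protein, removes the ubiquitin chain, and unfolds and feeds the protein into the barrel with a ring of ATPases. In immune cells interferon induces a second set of cutting subunits that take the place of the standard ones, and the resulting immunoproteasome makes peptides for antigen presentation. Because subunits are needed in fixed proportions, their genes are known to be expressed together, and in mammals the transcription factor NRF1 raises them when proteasome activity falls short.

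The sequence around the transcription start is shown first, because a run of letters recurred there in many members. RefSeq promoter windows of build GRCm38.p6, which run from 250 bases before to 50 bases after a start, were matched by symbol for 32 of the 39 members. The letters ACTTCCG, a form of the site bound by ETS factors such as GABPA, stood on either strand of the windows of 13 of these 32 members (40.6%). They stood in the windows of 1412 of 8802 other genes of mean at least 10 in each table (16%), and of 1947 of all 27025 genes with a window (7.2%). The core of the antioxidant response element, TGACNNNGC, which NRF1 also reads, stood in 6 of the 32 members (18.8%) and in 17.2% of the other expressed genes. The CCAAT box, CCAAT, stood in 12 of the 32 members (37.5%) and in 43.1% of the other expressed genes. These 3 runs of letters were chosen after some of the sequences had been seen, both strands were searched, and a match is a description of the letters only. The match nearest to the start is printed below for each of the 13 members, in the direction that reads ACTTCCG (capitals), with 10 bases on either side.
Psma4 (chr9:54950746-54950772, plus strand): cactgggagaACTTCCGcgtcctcccg
Psma6 (chr12:55398831-55398857, plus strand): agtagccataACTTCCGggagggggct
Psmb4 (chr3:94886947-94886973, minus strand): gcaaaggaccACTTCCGtttccggtga
Psmc1 (chr12:100110163-100110189, plus strand): tggtggatgcACTTCCGgcggtggcga
Psmc2 (chr5:21786712-21786738, plus strand): gcgcggagctACTTCCGgtggggaaga
Psmc4 (chr7:28050065-28050091, minus strand): tatgtgaaggACTTCCGttggcgtcag
Psmd6 (chr14:14120973-14120999, plus strand): cgccagtctgACTTCCGgtcgcgtctc
Psmd8 (chr7:29180674-29180700, minus strand): gagcgaacggACTTCCGttcgccattt
Psmd12 (chr11:107479500-107479526, plus strand): tgagcgggcgACTTCCGgtgcgagtga
Psmd13 (chr7:140882379-140882405, minus strand): gtgctcgctcACTTCCGgcaccgcggg
Psmd14 (chr2:61711569-61711595, plus strand): agctcgcctgACTTCCGcctcgcgggg
Psme3 (chr11:101316204-101316230, plus strand): ctgtgacgcaACTTCCGgcgtgagcgg
Psme4 (chr11:30771713-30771739, minus strand): gcctcaagtcACTTCCGgggcggggcc

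Of these 13 stretches, 10 lay on the strand of the gene and 3 (Psmd6, Psmd13 and Psme4) on the opposite strand. The match was within 100 bases of the start in 11 members, with a median distance of 18 bases, and it was followed by a G in 8. The 13 members came from both core rings, both parts of the 19S particle and the activators, and from none of the 3 chaperones. The 250 bases before the start are printed whole for the called members with a window that had the lowest and the highest log2 fold between ages, Psma4 and Psmd14 (levels given further on), with every match to the 3 runs of letters in capitals.
Psma4 (chr9:54950609-54950858, plus strand): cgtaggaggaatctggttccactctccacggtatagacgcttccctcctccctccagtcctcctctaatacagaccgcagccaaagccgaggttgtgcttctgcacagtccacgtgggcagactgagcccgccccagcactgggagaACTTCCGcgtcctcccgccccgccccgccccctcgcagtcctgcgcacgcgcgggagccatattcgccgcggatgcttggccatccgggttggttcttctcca
Psmd14 (chr2:61711444-61711693, plus strand): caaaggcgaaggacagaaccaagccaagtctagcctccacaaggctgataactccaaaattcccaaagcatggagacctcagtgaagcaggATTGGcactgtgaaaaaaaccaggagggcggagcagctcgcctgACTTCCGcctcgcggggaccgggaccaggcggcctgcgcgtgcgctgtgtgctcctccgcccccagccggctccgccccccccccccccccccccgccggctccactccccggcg

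The stretch of Psma4 holds ACTTCCG, 103 bases before the start. That of Psmd14 holds ACTTCCG as well, 115 bases before its start, and a CCAAT box on the opposite strand (read here as ATTGG), 159 bases before. The same run of letters therefore stood before a gene that was lower and before one that was higher in aged cells.

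Reads counted in genes numbered 4864402 to 15587030 per aged library (median 8159784) and 7433159 to 13574542 per young library (median 9847012). The 39 members together took 0.36% to 0.516% of the reads in aged libraries (median 0.399%) and 0.382% to 0.568% in young libraries (median 0.421%). A few libraries stood apart in most members at once. Young ZT4 replicate 3, the young library with the most reads, had a median deviation of its members from their own age's day mean of 0.36 on the log2 scale, against -0.03 and 0.06 in replicates 1 and 2 of its group. Aged ZT16 replicate 1 had one of 0.30 and aged ZT0 replicate 2 one of 0.19, and aged ZT8 replicate 2 had the lowest, at -0.21. B cell markers moved with age: 8 of 8 were called higher in aged cells, and their summed level was 4779 to 19940 rescaled reads (median 9648) in aged and 4808 to 8746 (median 6359) in young libraries. Of 7 tested T cell markers 4 were higher, 1 of 7 mast cell markers was lower, 3 of 4 dendritic cell markers were lower, and 1 of 3 neutrophil markers was higher and 1 lower, all in aged cells. Macrophage markers, of which 1 of 8 was higher and 2 were lower, summed to 180000 to 318000 (median 248700) in aged and 224400 to 338000 (median 282000) in young libraries. Most of this sum was Lyz2 (median 218380 in aged and 252600 in young libraries, log2 fold -0.25), which was called lower. Cd68 was also called lower (log2 fold -0.18), and Cd14 was called higher (0.18). Adgre1, Csf1r and Itgam, with log2 folds of 0.05, -0.05 and 0.01, were not called. Neither were Fcgr1 (0.10) and Mertk (0.14). No marker of any list was at 0 in every library. Peritoneal macrophage markers were also present in each age, although the labels name no site: 2 of 6 were higher in aged cells, Cxcl13 (median 16956 in aged and 2835 in young libraries, log2 fold 2.59) and Garnl3 (log2 fold 0.34), and 2 were lower, Icam2 (-0.16) and Timd4 (-0.37).

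The first comparison asked whether the mean level of each subunit over the day differed between ages. It was small for every member: fitted log2 folds, aged minus young, ran from -0.28 to 0.18 with a median of -0.05. Of the members 27 of 39 lay below 0, and of all genes 49.2% did. That count was 22 of 39 without the ZT4 libraries. With summed B cell, T cell and mast cell markers as covariates it was 14 of 39. The 7 subunit genes that fell in aged cells were Psma1, Psma4 and Psma7 of the alpha ring, Psmb7 of the beta ring, Psmc3 of the ATPase ring, and the scaffold subunits Psmd1 and Psmd2, and 1 rose, the deubiquitinase Psmd14. Limma with Benjamini-Hochberg adjustment over 12109 genes thus called 8 of 39 members (20.5%) in either direction, where it called 23.7% of all genes. At an unadjusted p under 0.05 there were 9 members, with 33.9% of all genes. The share called lower over all genes was 11.7%, with 7 of 39 members, and the share called higher was 12.0%, with 1 of 39. The count of called members is therefore near the background and is no result about these genes as a group, and the split in direction was not tested.

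**Figure D1:**
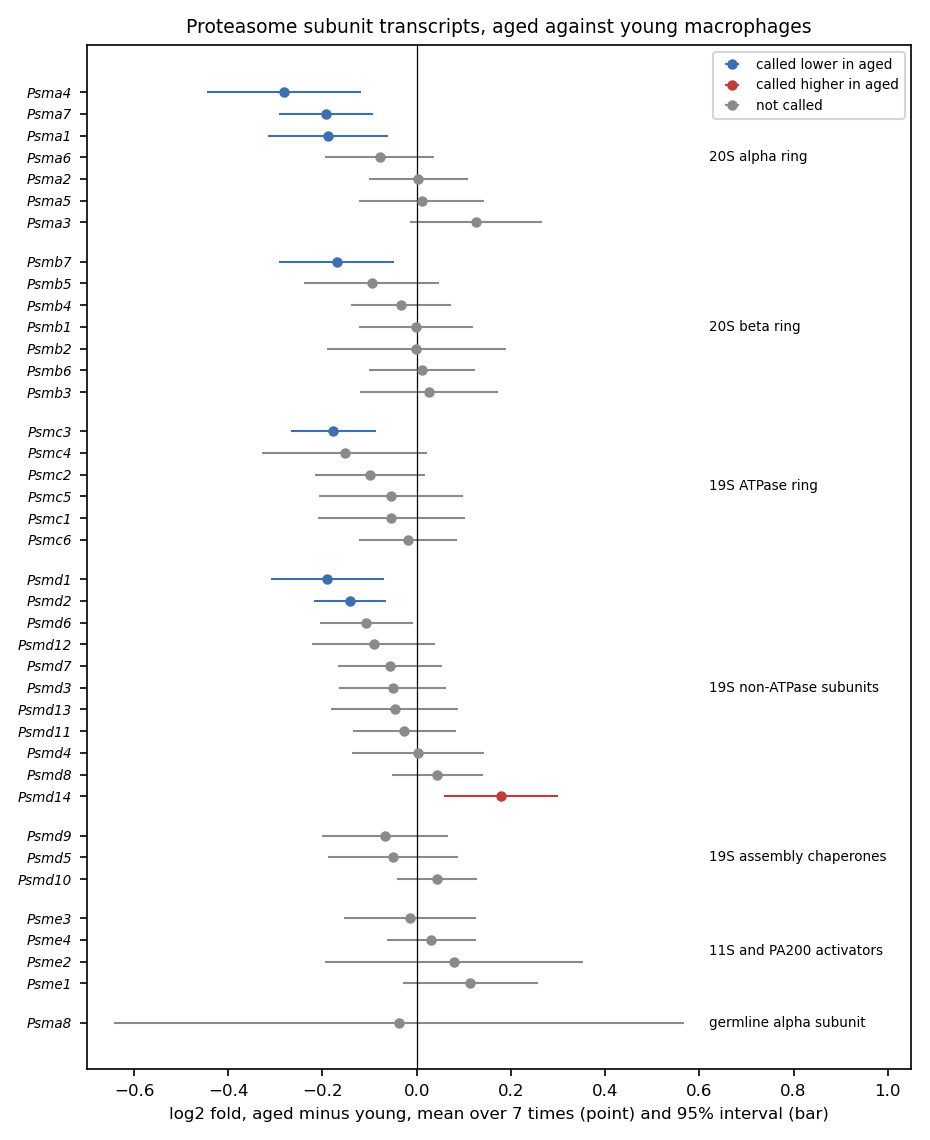
Fitted log2 fold, aged minus young, of the mean level over 7 times for each of the 39 subunit genes, grouped by role, with the 95% interval as a bar (21 libraries per age). The 7 genes called lower and Psmd14, called higher, lie within 0.3 of 0 on the log2 scale, and Psma8 has the widest interval, from -0.64 to 0.57.

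In the 20S alpha ring, whose subunits form the gate of the barrel, 3 of 7 members fell and 4 of 7 had a fold below 0. Psma7 (ENSMUSG00000027566, chromosome 2, 180036374 to 180042433, minus strand, build GRCm38), an alpha ring subunit that Psma8 replaces in germ cells, ran from 2460.3 to 3844 rescaled reads in aged libraries (median 3028) and from 2739.7 to 5081 in young libraries (median 3348). The ranges overlapped, and the log2 fold fitted at each time was below 0 at 7 of 7 times. Its log2 fold over the day was -0.19 ± 0.05 (SE, limma, adjusted p = 0.00385).

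Psma4 (ENSMUSG00000032301, chromosome 9, 54950790 to 54958030, plus strand), also of the alpha ring, had the lowest fold of all members, a log2 fold of -0.28 ± 0.08 (SE, limma, adjusted p = 0.0108). Its aged libraries ran from 349.9 to 697 rescaled reads (median 416) and its young libraries from 395 to 1104 (median 532). The highest young value was that of ZT4 replicate 3, and the fold fitted at each time was below 0 at 6 of 7 times. Without the 6 libraries of ZT4 the call held, as it did for Psma7, Psmd1, Psmd2 and Psmd14.

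Psma1 (ENSMUSG00000030751, chromosome 7, 114264606 to 114276118, minus strand) ran from 652 to 1242 rescaled reads in aged libraries (median 927) and from 798 to 1259 in young libraries (median 1019.6). Its log2 fold was -0.19 ± 0.07 (SE, limma, adjusted p = 0.0301), with a fitted fold below 0 at 6 of 7 times, and the call was lost in 8 of 42 fits that each left out 1 library. These were the fits without aged ZT4 replicate 3, ZT8 replicate 2, ZT12 replicate 1, ZT16 replicate 3 or ZT20 replicate 1, or young ZT0 replicate 1, ZT8 replicate 2 or ZT16 replicate 2 (limma, adjusted p 0.052 to 0.0593). The call was also lost with no filter on low genes (limma, adjusted p = 0.0637) and without the ZT4 libraries (0.0804). An adjusted p under 0.01 and the marker covariates lost it as well. Psma3 had the highest fold of this ring, 0.13 on the log2 scale, and was not called (limma, adjusted p = 0.219). The adjusted p of Psma2, Psma5 and Psma6 by limma was between 0.369 (Psma6) and 0.974 (Psma2).

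In the 20S beta ring, which holds the cutting sites, 1 of 7 members fell and the median log2 fold was -0.0015. Psmb7 (ENSMUSG00000026750, chromosome 2, 38588036 to 38644087, minus strand), the subunit of the trypsin-like site, ran from 233 to 395 rescaled reads in aged libraries (median 330.2) and from 292 to 517 in young libraries (median 371). Its log2 fold was -0.17 ± 0.06 (SE, limma, adjusted p = 0.0427), with a fitted fold below 0 at 5 of 7 times. This was the least stable of the calls, lost in 23 of 42 fits that left out 1 library, at an adjusted p of up to 0.0825 (limma, without young ZT0 replicate 3). The call was also lost with no filter on low genes (limma, adjusted p = 0.0619) and without the ZT4 libraries (0.196). An adjusted p under 0.01 and the marker covariates lost it as well.

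Psmb5, of the chymotrypsin-like site, had a log2 fold of -0.10 (limma, adjusted p = 0.379), and Psmb6, of the caspase-like site, one of 0.01 (limma, adjusted p = 0.921). Psmb3 had the highest fold of this ring at 0.03 on the log2 scale, with 449 to 1112 rescaled reads in aged and 487 to 751 in young libraries. The folds of the remaining Psmb1, Psmb2 and Psmb4 were between -0.03 and 0.00.

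In the 19S ATPase ring, the motor that unfolds the substrate, 6 of 6 members had a fold below 0 and 1 was called. Psmc3 (ENSMUSG00000002102, chromosome 2, 91054009 to 91066369, plus strand) had the lowest p of all members, with a log2 fold of -0.18 ± 0.05 (SE, limma, adjusted p = 0.00354). Its aged libraries ran from 1425 to 2150.4 rescaled reads (median 1583) and its young libraries from 1432 to 2362 (median 1812). The fitted fold was below 0 at 5 of 7 times, and without the ZT4 libraries the log2 fold was -0.13 (limma, adjusted p = 0.06), so that the call was lost.

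The other ATPases Psmc1, Psmc2, Psmc4, Psmc5 and Psmc6 were not called, with log2 folds from -0.15 (Psmc4, 145 to 310.3 rescaled reads in aged and 158 to 306 in young libraries) to -0.02 (Psmc6, 565 to 862 in aged and 626 to 939 in young libraries). Of these Psmc4 had the lowest adjusted p by limma, at 0.233.

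Among the 11 other subunits of the 19S particle, 2 fell and 1 rose. Psmd2 (ENSMUSG00000006998, chromosome 16, 20651652 to 20663414, plus strand) and Psmd1 (ENSMUSG00000026229, chromosome 1, 86064387 to 86139151, plus strand) are the large scaffold subunits on which ubiquitin receptors and shuttles dock. Psmd2 ran from 1291 to 2178 rescaled reads in aged libraries (median 1651) and from 1660.2 to 2005 in young libraries (median 1827), and its log2 fold was -0.14 ± 0.04 (SE, limma, adjusted p = 0.00549). Psmd1 ran from 443 to 762 in aged libraries (median 609.98) and from 538 to 817 in young libraries (median 682), with a log2 fold of -0.19 ± 0.06 (SE, limma, adjusted p = 0.0197). The fitted fold of each was below 0 at 6 of 7 times.

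Psmd14 (ENSMUSG00000026914, chromosome 2, 61711694 to 61800376, plus strand), the enzyme that cuts the ubiquitin chain off the substrate as it enters, was the only member called higher in aged cells. Its aged libraries ran from 567 to 1119 rescaled reads (median 896) and its young libraries from 606 to 948 (median 785). The log2 fold was 0.18 ± 0.06 (SE, limma, adjusted p = 0.0302), and the fitted fold was above 0 at 6 of 7 times. The call was lost in 5 of 42 fits that each left out 1 library (limma, adjusted p 0.0508 to 0.0615). These were the fits without aged ZT12 replicate 2, aged ZT12 replicate 3, aged ZT16 replicate 1, young ZT8 replicate 1 or young ZT24 replicate 3. With all libraries the call was lost when they were scaled to their totals (limma, adjusted p = 0.0581) and with no filter on low genes (0.0595). It was also lost at an adjusted p under 0.01 and with the marker covariates.

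The remaining non-ATPase members Psmd3, Psmd4, Psmd6, Psmd7, Psmd8, Psmd11, Psmd12 and Psmd13 had log2 folds from -0.11 (Psmd6) to 0.04 (Psmd8). Psmd6 came nearest to the threshold, with 622 to 1027 rescaled reads in aged libraries (median 768) and 665 to 1003 in young libraries (median 839.6; limma, adjusted p = 0.124). Psmd7, of the same heterodimer as Psmd14, and Psmd12 had a fitted log2 fold below 0 at 7 of 7 times, with folds over the day of -0.06 and -0.09 and adjusted p of 0.53 and 0.351 by limma. The enzyme and its partner therefore differed in the sign of their fold, and that difference was not tested.

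None of the 3 assembly chaperones, which help to build the base of the 19S particle, was called. Psmd9 had a log2 fold of -0.07, Psmd5 one of -0.05 and Psmd10, known as gankyrin, one of 0.04, with adjusted p of 0.521 to 0.669 by limma. None of the 4 activators was called either. Psme1, which with Psme2 forms the interferon-inducible cap on the barrel, ran from 733 to 1499 rescaled reads in aged libraries (median 957) and from 706 to 1657 in young libraries (median 853), a log2 fold of 0.11 ± 0.07 (SE, limma, adjusted p = 0.281).

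Psme2 ran from 86.0 to 226 in aged and from 69.2 to 268 in young libraries, with a log2 fold of 0.08. Its near-identical copy Psme2b averaged 54.3 normalised reads in the aged table and 58.4 in the young table, so that reads of the pair may be split between them. The nuclear activator Psme3 had a log2 fold of -0.01, the lowest of this group, and Psme4, which encodes PA200, had one of 0.03. Psma8, an alpha subunit of male germ cells, was at 5.81 to 64.9 rescaled reads in aged libraries and at 0 to 54.2 in young libraries, and its log2 fold of -0.04 had a 95% interval from -0.64 to 0.57.

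**Figure D2:**
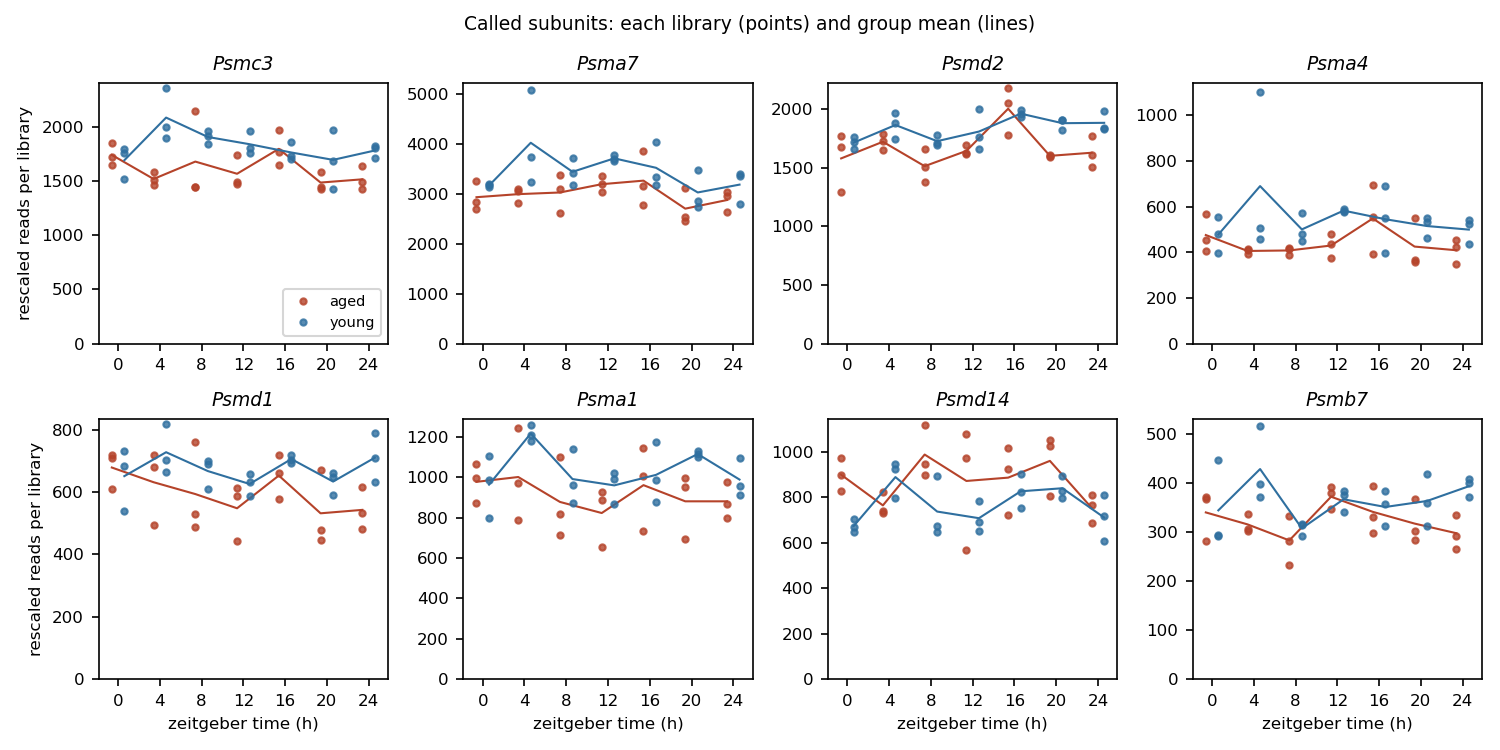
Rescaled reads of the 8 called subunit genes in each of the 42 libraries (points) and as means of 3 libraries per time (lines), aged beside young at each zeitgeber time in hours, in order of p. The ranges of aged and young libraries over the day overlap for each gene, and the high young point of Psma4 at ZT4 is replicate 3, at 1104 reads.

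For 38 of 39 members, all but Psma8, the 95% interval of the log2 fold lay within 0.5 of 0, which held for 69.8% of all genes. The median size of the log2 fold, without its sign, was 0.05 in the members and 0.13 in all genes, with a median SE of 0.06 and 0.09. No member exceeded 0.3 in size, while 21.6% of all genes did. The members were not set against genes of like level or like SE, so these shares do not show that they were steadier. In bulk RNA fewer cells of a type and less RNA per cell cannot be told apart. With the summed levels of the B cell, T cell and mast cell markers as covariates limma called 0 of 39 members. In that fit the median log2 fold of the members was 0.03 and the count over all genes was 1330. Of the 8 genes called without the covariates, Psma4 had a log2 fold of -0.30 in it, the 6 others that fell had folds from -0.13 (Psma7) to -0.07 (Psmd2), and Psmd14 had one of 0.12 (limma, adjusted p 0.107 to 0.537).

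At single times the comparison was of 3 aged against 3 young libraries, with the spread taken from all 14 groups. The p-values were adjusted over all genes within each time, and not across times. Of 273 member and time pairs 1 was called, Psmc3 at ZT4, where 1.86% of all 84763 gene and time pairs were called. Psmc3 had 1512, 1583 and 1469 rescaled reads in aged cells at ZT4, against 1903, 2002 and 2362 in young cells. All 3 aged libraries were below all 3 young libraries, and the log2 fold was -0.45 ± 0.12 (SE, limma, adjusted p = 0.0493). EdgeR called none of the 273 pairs, limma called none of them without young ZT4 replicate 3, and the count was 1 in only 13 of 42 fits that each left out 1 library.

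ZT4 was the time at which the members leaned furthest to 1 side. There 34 of 39 folds were below 0, with a median log2 fold of -0.20 and a median of 0.00 over all genes. All aged libraries were below all young libraries in 11 of 39 members at ZT4, which held for 8.61% of all genes, and above them in 1, against 9.42% of all genes. ZT4 was picked from these same values, and the members share the same libraries. These counts are therefore a description only, and the lean was not tested. Psma4 had 391, 410.1 and 416 rescaled reads in aged cells and 459, 507 and 1104 in young cells, and Psma7 had 3097, 3055 and 2812 in aged cells and 3238, 3729.6 and 5081 in young cells. Neither was called at this time (limma, adjusted p = 0.136 for Psma4 and 0.126 for Psma7). Without young ZT4 replicate 3 the median log2 fold at ZT4 was -0.13 and 31 of 39 folds were below 0. At the other times the median was between -0.05 (ZT20, 28 of 39 below 0) and 0.03 (ZT0, 15 of 39 below 0). With the summed B cell, T cell and mast cell markers as covariates the median at ZT4 was -0.18 (32 of 39 below 0). In that fit the medians at the other times were all above 0, between 0.03 (ZT16, 18 of 39 below 0) and 0.10 (ZT8, 10 of 39 below 0).

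The next comparisons asked whether the subunits followed a 24 h rhythm at either age. No member was called rhythmic in aged cells, where limma's F-test of a 24 h cosine and sine called 0.308% of 12016 genes at a Benjamini-Hochberg adjusted p under 0.05. No member was called in young cells either, where it called 3.62% of 12113 genes. At an unadjusted p under 0.05 there was 1 member in aged cells, with 9.01% of all genes, and there were 8 in young cells, with 17.2% of all genes. EdgeR also called 0 members at either age, and DESeq2 called 0 in aged and 1 in young cells. The median fitted peak-to-trough fold of the members was 1.15 in aged and 1.13 in young cells, where that of all genes was 1.21 in aged and 1.22 in young cells. Here too the members were not set against genes of like level.

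**Figure D3:**
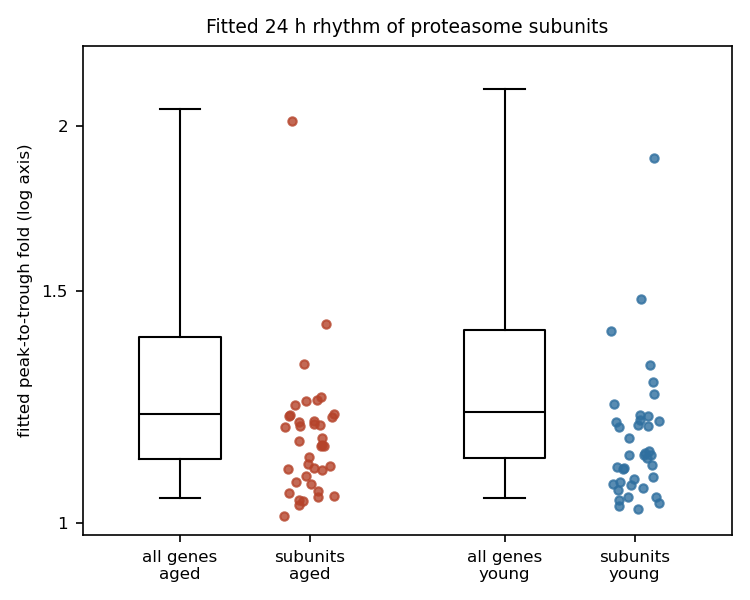
Fitted 24 h peak-to-trough fold (log axis) of all tested genes (box at 25, 50 and 75%, whiskers at 5 and 95%) and of the 39 subunit genes (points), aged at the left and young at the right. The subunits have medians of 1.15 in aged and 1.13 in young cells, and the highest point at each age is Psma8, at 2.02 in aged and 1.89 in young cells.

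In young cells Psmd5, the 19S chaperone, came nearest to the threshold (limma, adjusted p = 0.0564). Its group means in young cells were 318 rescaled reads at ZT0, 230 at ZT4, 196 at ZT8, 268 at ZT12, 245 at ZT16, 283 at ZT20 and 333 at ZT24. All 3 libraries of ZT8, the time of the lowest mean, were below all 6 libraries of ZT0 and ZT24, those of the highest means. These times were picked from the same values, so the separation is a description only. In aged cells the means of Psmd5 were 248, 261, 232, 281, 243, 257 and 268 at the same times, and its 3 libraries of ZT8 (162, 275 and 259) overlapped those of ZT0 and ZT24. The fitted peak of the young cells was at ZT 21.3 ± 1.02 h (SE) with a fold of 1.48. Limma called its rhythm without young ZT12 replicate 1 (adjusted p = 0.0162), without young ZT12 replicate 2 (0.0369) and without young ZT20 replicate 1 (0.0377). No other of the 21 fits that each left out 1 young library called it. With all libraries DESeq2 called it (adjusted p = 0.0317), as did limma among genes of mean at least 50 (0.0488). EdgeR did not, nor did limma with 7 time levels, a drift term or a replicate block, or without the ZT0 or the ZT24 libraries.

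The 3 members next in order in young cells were Psme1, with a fold of 1.40 and a fitted peak at ZT 6.14, Psmd9, with 1.32 and ZT 10.3, and Psmc3, with 1.19 and ZT 6.95 (limma, adjusted p 0.16, 0.194 and 0.244). Psme1 had 877, 1656.5 and 1424 rescaled reads at ZT4 in young cells and group means of 784 to 947 at the other times, and its 2 highest young values were both at ZT4. It was called only without young ZT8 replicate 2 (limma, adjusted p = 0.0468), and Psmb2 was called only without the ZT4 libraries (limma, adjusted p = 0.0412).

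In aged cells the lowest p was that of Psma3, of the alpha ring, with a fold of 1.42 and a fitted peak at ZT 4.70 ± 1.04 h (SE, limma, adjusted p = 0.386). Its group means in aged cells were 292 rescaled reads at ZT0, 259 at ZT4, 304 at ZT8, 242 at ZT12, 201 at ZT16, 217 at ZT20 and 274 at ZT24. All 3 aged libraries of ZT16, the time of its lowest mean, were below all 6 aged libraries of ZT0 and ZT24. These times too were picked from the same values. In young cells its means lay between 217 (ZT4) and 261 (ZT8). Psmd4, a ubiquitin receptor, Psmb3 and Psmd8 followed, with folds of 1.25, 1.32 and 1.20 (limma, adjusted p 0.58 to 0.591).

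The amplitude, from mean to peak, had an upper 95% bound under 0.5 on the log2 scale in 38 of 39 members at each age. The highest of these bounds was 0.40 in aged cells (Psma3) and 0.43 in young cells (Psmd5), while Psma8 reached 1.03 in aged and 1.13 in young cells. The difference in rhythm between ages was called for 0 of 39 members and 0% of 12109 genes by limma. At an unadjusted p under 0.05 it held for 0 members and 4.08% of all genes, edgeR called 0 members and 4 genes, DESeq2 called 0 members and 7 genes, and the lowest p among the members was that of Psmd5, at 0.0512 before adjustment (adjusted p = 0.999).

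**Figure D4:**
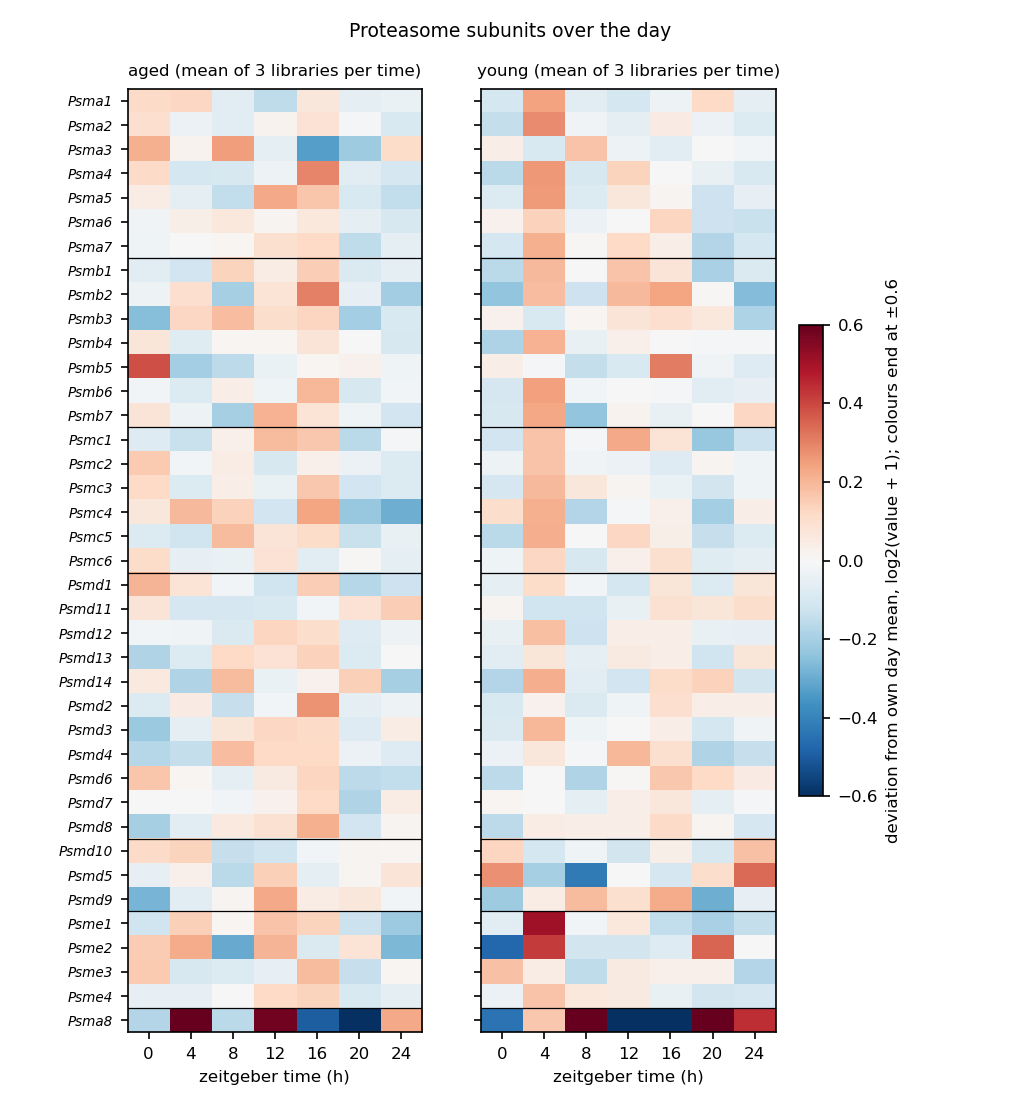
Deviation of each subunit gene from its own day mean, in log2(value + 1), as the mean of 3 libraries at each zeitgeber time in hours, aged at the left and young at the right, with members grouped by role. In aged cells 32 of 39 members are above their mean at ZT16, and in young cells 32 of 39 are above it at ZT4.

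The plot of deviations over the day shows on which side of their mean the members lay at each time. In aged cells 20, 16, 19, 25, 32, 8 and 9 of 39 members were above their own day mean at ZT0, ZT4, ZT8, ZT12, ZT16, ZT20 and ZT24. In young cells these counts were 10, 32, 10, 25, 28, 14 and 10. Of all tested genes 50.2% to 51.8% were above their own day mean at each time in aged cells, and 50% to 52.4% in young cells. The counts of members were not tested against these shares, and single libraries moved with the counts. In aged ZT16 replicate 1 there were 35 of 39 members above their mean, against 22 and 14 in replicates 2 and 3, and in young ZT4 replicate 3 there were 32, against 17 and 25 in replicates 1 and 2.

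Other genes of the pathway, from lists chosen with earlier results of these data known, were read in the same fits. Over all genes 11.7% were called lower and 12.0% higher, and the lists were not tested as groups. Of the 3 inducible catalytic subunits 2 rose in aged cells. Psmb9 had 677 to 2246 rescaled reads in aged libraries (median 1242) and 668 to 2474 in young libraries (median 807), a log2 fold of 0.42 ± 0.11 (SE, limma, adjusted p = 0.00332), and Psmb8 had a log2 fold of 0.22 ± 0.08 (SE, limma, adjusted p = 0.0323). Psmb10 had a log2 fold of 0.14 and was not called (limma, adjusted p = 0.353). Of 5 assembly factors of the 20S core 3 fell: Pomp, which closes the maturing barrel (log2 fold -0.21, limma, adjusted p = 0.00763), and the ring-building chaperones Psmg1 (log2 fold -0.21, adjusted p = 0.0483) and Psmg2 (log2 fold -0.20, adjusted p = 0.0339).

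Of 10 further 19S subunits and partners 1 fell, Sem1, a small subunit of the 19S lid, with 2332 to 4123 rescaled reads in aged libraries (median 3331) and 3219 to 4850.4 in young libraries (median 3777; log2 fold -0.20, limma, adjusted p = 0.00347). Of 12 ubiquitin shuttles and partners of the p97 unfoldase 2 fell, the shuttle Rad23b (log2 fold -0.14, limma, adjusted p = 0.0422) and the p97 adaptor Faf1 (log2 fold -0.21, adjusted p = 0.0353). None of 4 ubiquitin genes was called. Of 5 genes of the NRF1 axis 2 rose, Nfe2l1, which encodes NRF1 itself (log2 fold 0.14 ± 0.04, SE, limma, adjusted p = 0.0139), and Syvn1, a ubiquitin ligase of the endoplasmic reticulum that acts on it (log2 fold 0.19, adjusted p = 0.029). No gene of these lists was rhythmic at either age.

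Each inducible catalytic subunit takes the place of a standard one, so the ratio within the pair was compared per library, a test added after the levels were known. The log2 ratio of Psmb9 to Psmb6 was 0.36 ± 0.38 in aged and -0.05 ± 0.41 in young libraries (mean ± SD, n = 21 each). That of Psmb8 to Psmb5 was 3.40 ± 0.38 in aged and 3.08 ± 0.45 in young libraries, and that of Psmb10 to Psmb7 was 1.54 ± 0.27 in aged and 1.23 ± 0.39 in young libraries (mean ± SD, n = 21 each). The ranges of aged and young libraries overlapped in each pair. The mean ratio was higher in aged cells at 6 of 7 times in each, and at ZT4 it was not. Two-sided permutation tests within times, with 100000 resamples, gave differences of 0.41 for Psmb9 (p = 0.00101, adjusted over 3 pairs 0.00303), 0.32 for Psmb8 (p = 0.00491, adjusted 0.00736) and 0.31 for Psmb10 (p = 0.00744, adjusted 0.00744). The scaling of the libraries cancels in such a ratio apart from the added pseudocount. These differences restate the level folds given above, from the same libraries, so their p-values are not separate support for them. In the pair of Psmb10 and Psmb7, Psmb10 had a log2 fold of 0.14 and was not called. Psmb7 had one of -0.17, and its call was lost in 23 of 42 fits that left out 1 library. B cells, whose markers were higher in aged cells, also carry inducible subunits, and their part in these differences was not tested.

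**Figure D5:**
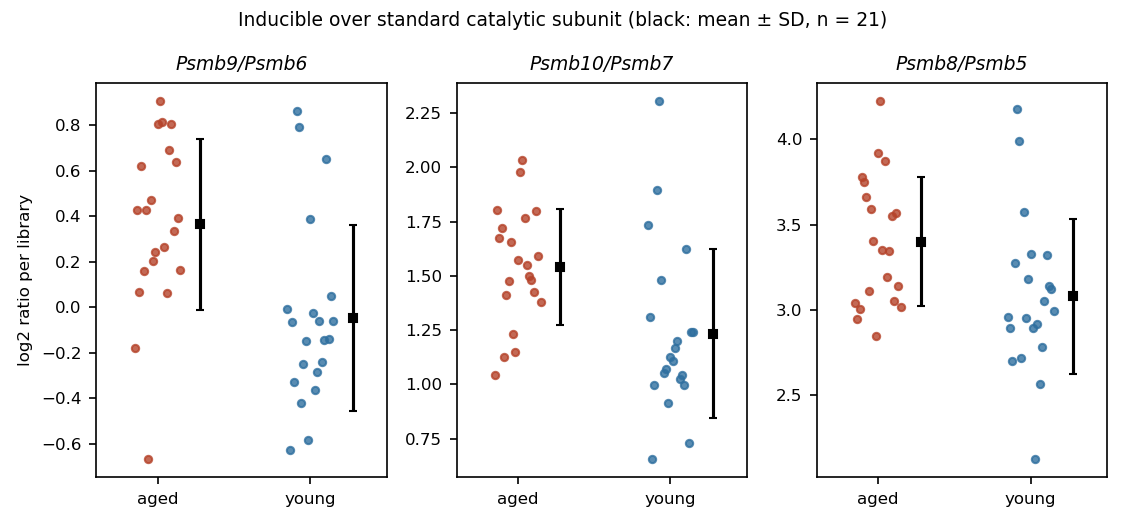
Log2 ratio of the inducible to the standard catalytic subunit in each of the 21 aged and 21 young libraries (points), with the mean ± SD in black, for the 3 catalytic sites. The aged means of 0.36, 1.54 and 3.40 lie above the young means of -0.05, 1.23 and 3.08, and the points of both ages overlap in each pair.

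Some values carry limits of counting at the 3' end. The last bases of Psma3, Psmb7, Psmc3 and Psme1 overlap a gene on the other strand, 3110056K07Rik, Nek6, Slc39a13 and Emc9, and those of Psmd1 overlap the gene model Gm21972 on the same strand. Whether counting used the strand is not given in the sources used here, so reads of such a pair cannot be told apart. The overlapping genes averaged at most 97.7 normalised reads in the aged table and 115.4 in the young table (Slc39a13 in both). The pseudogenes of Psmb5, Psmb6 and Psmb7 averaged at most 0.397 in either table.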

How the data were processed

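Total RNA of 42 macrophage samples, 21 aged and 21 young, was sequenced from the 3' end (QuantSeq), per the labels' protocols. The submitters' processing notes name STAR, DESeq2 and mm10. Of the counter, annotation and versions nothing is given in the sources used here. For each age, the authors deposited a normalised signal per gene in a separate table. Each deposited value is a whole multiple of its library's step, as a read count over a size factor would be, and 100% of values became whole reads (tolerance 0.001) on division by it. The separate normalisation leaves the tables without a common scale.

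Age and time were taken from the labels. Symbols were matched by Ensembl identifier for 47224 of 47643 genes, and gene positions come from GENCODE M21 (GRCm38). Within each age a 24 h cosine and sine were fitted to log2(value + 1) of the deposited values, for genes of mean at least 10, with limma-trend (limma 3.58.1, R 4.3.3). For tests between ages, recovered reads were brought to a common scale by the median of ratios over the 42 libraries (rescaled reads). The mean level, single times and the difference in rhythm were tested with limma-trend on log2(rescaled reads + 1), and fold changes on this scale understate those of low genes. Calls are at a Benjamini-Hochberg adjusted p under 0.05 over all genes tested, and for single times over all genes within each time. Alternatives were edgeR 4.0.16 and DESeq2 1.42.0 on recovered reads, pseudocounts, filters, scalings, thresholds, models of time, marker covariates, a replicate block and each library left out. The fits without the ZT4 libraries, the catalytic ratios and their alternatives were added after values had been seen. The tests were also run on simulated data with known changes. How many of those changes were recovered is not given here, so that run is no support for the calls. Without molecular identifiers, reads may be copies of the same molecule.

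The members and gene lists were chosen with earlier results of these data known. Every member is named, group values are given for called members (up to 8 per comparison, else the 4 of lowest p) and for the highest and lowest fold of each role group, and the called genes of related lists are named. Psmd5 in aged cells, Psma3 in young cells, Psma4 and Psma7 at ZT4, Psmb2, Psmd7, Psmd12 and the library values that stood apart were named after their values had been seen. Promoter sequences are RefSeq's, and figures were drawn with matplotlib.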

Additional observations from a re-analysis of the deposited data

How the results depend on the processing

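Of the 8 members called in mean level, Psma4, Psma7, Psmc3, Psmd1 and Psmd2 kept their call in each of 42 fits that left out 1 library, and the count of called members was 6 to 8 in these fits. It was 5 with no filter on low genes, 3 at an adjusted p under 0.01, 5 without the ZT4 libraries and 0 with the marker covariates. Deposited values as they stand, which are not on 1 scale across ages, moved the median log2 fold of all genes to -0.24 and gave 34 called members, all lower, 7270 called genes (582 higher, 6688 lower) and a log2 fold of Psmd14 of -0.0624, of the opposite sign. The count over all genes, 2865 in the main setting, was 1330 with the marker covariates and 1883 at an adjusted p under 0.01. For single times the count of members was 0 with no filter, in edgeR, at an adjusted p under 0.01 and with upper quartile scaling. It was also 0 with the replicate block and with the marker covariates. It was 2 in DESeq2, 41 with deposited values as they stand, and 0 to 3 when 1 library was left out. Without the ZT4 libraries it was 0 of 234 pairs, but the pair called in the main setting was then not tested. The count over all pairs, 1576, was 1047 with the marker covariates, 491 at an adjusted p under 0.01 and 8370 with deposited values. For rhythms in young cells 1 member was called with a mean of at least 50, in DESeq2 and without the ZT4 libraries, and 0 to 1 when 1 library was left out. The count over all genes, 438, was 236 with no filter, 696 in DESeq2 (adjusted p missing for 1409), 154 at an adjusted p under 0.01, 266 with a drift term and 262 without the ZT0 libraries. In aged cells no alternative called a member, with 0 to 0 when 1 library was left out, and the count over all genes, 37, was 91 in DESeq2 and 23 at an adjusted p under 0.01. The difference in rhythm was called for 0 members in every alternative run, with 0 to 0 when 1 library was left out and up to 7 of all genes in the other settings. Libraries of the same replicate number were not more alike than others once group means were removed. Their correlations were -0.264 to 0.187 (median -0.000772), and those of other pairs -0.224 to 0.244 (median 0.000437). A small effect shared by same-numbered libraries could go unseen in these values. The replicate block gave 0 members for each rhythm test and 8 for mean level. The 3 catalytic ratios kept their sign and their call with pseudocounts of 0.5 and 4 and without the ZT4 libraries, with differences of 0.31 to 0.49. These settings are weak checks. ZT4 was the only time at which the mean ratio was not higher in aged cells, so leaving it out could only widen the difference. Pseudocounts of this size hardly move the ratio at the levels of these genes. The cause of these changes was not tested.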
